A study of Zea mays with 12 samples.

Results

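Peptidases and proteases, the enzymes that cut peptide bonds, were followed in maize stem after long exposure to the stem borer *Sesamia nonagrioides*. Of 29723 features with a maize gene identifier, 102 were taken as peptidase and protease genes. The gene description of 100 of them names a cysteine protease or proteinase, a subtilisin or subtilase, an aspartic proteinase, a carboxypeptidase or another peptidase, and names no inhibitor. The remaining 2, GRMZM2G036365 and GRMZM2G076417, were added because the study's own gene lists name them as a pepsin A and a putative peptidase. Since each of these 2 genes entered through a difference called in these libraries (larva against control for GRMZM2G036365, regurgitate against wounding for GRMZM2G076417), its values in that contrast are a description and no support.

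All plants were of the inbred line PB130, grown in a greenhouse, and a piece of undamaged stem from below the ear was taken at day 15. Control plants were left untreated. Larva plants carried young *S. nonagrioides* larvae placed between leaf sheath and stem. Wounding plants had the leaf sheath scratched with a scalpel and received phosphate buffer on the scratches. Regurgitate plants received caterpillar regurgitate in the same buffer on the same kind of scratch. Wound sites were sealed with parafilm, and both treatments were repeated every other day. The regurgitate plants therefore share the wound, buffer and parafilm with the wounding plants, while control plants had none of these. The sources differ on the stage at treatment (tasselling or silking) and on the number of plants per treatment. Each treatment had 3 libraries of MACE, which sequences the 3' end of each transcript once, so that CPM (counts per 1000000 maize gene counts, after TMM scaling) do not grow with transcript length and levels of different genes can be set side by side.

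Plant proteases belong to a few catalytic classes. Papain-like cysteine proteases work in vacuoles and in the apoplast, in senescence, programmed cell death and defence, and in maize one of them, Mir1-CP, accumulates in resistant lines that caterpillars feed on. Subtilisin-like proteases (subtilases) are serine proteases that are mostly secreted, and pepsin-like aspartic proteinases of the nepenthesin type take their name from the digestive enzyme of pitcher plants. Carboxypeptidases and aminopeptidases trim proteins from their ends, signal peptidases remove the targeting sequence of secreted proteins, and threonine endopeptidase is the activity of the beta subunits of the proteasome.

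Libraries held 5651382 to 10056972 counts, and the members took 17334 to 47752 of them. The share of counts on maize genes was 84.9% to 89.7% in control and larva libraries, 58.4% to 74.4% in wounding libraries, and 72.8%, 44.2% and 93.1% in regurgitate 1, 2 and 3. Assembled contigs took 17.4% to 48.03% in the wounding libraries and in regurgitate 1 and 2, but 1.03% in regurgitate 3 and 2.34% to 7.53% in control and larva libraries. Larva 2 and larva 3 were nearly alike, with a chi-square per degree of freedom of 1.60 against 17.9 to 73.8 in the other pairs of replicates, more alike than the other replicates though beyond sampling noise. In bulk stem, fewer cells of a type and less RNA per cell cannot be told apart. Genes of green, of dividing and of secondary-walled vascular tissue were all detected.

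The members together made up 4366 to 6476 CPM. Cysteine proteases were the largest class in every library, at 1692 to 3787 summed CPM, although they number 12 genes. A single gene, GRMZM2G098298 (cysteine proteinase 1, the *CCP1* gene), gave 15.9% to 22.7% of the members' sum and was the highest member in all 12 libraries. It stood at 781, 1061 and 874 CPM in control, 1023, 920 and 862 CPM in larva, 1128, 767 and 1097 CPM in wounding and 1241, 1472 and 1162 CPM in regurgitate libraries. The regurgitate libraries lay above those of all other treatments, yet the difference from wounding (log2 fold change 0.36 ± 0.30, SE, n = 3 per group, edgeR FDR 0.533) and from control (0.49 ± 0.28, FDR 0.375) did not pass the test. The 43 other peptidases, led by the threonine endopeptidases GRMZM2G177508 and GRMZM2G047720 (means of 381 and 239 CPM), summed to 1350 to 1985 CPM. The 18 subtilisin-like proteases were the faintest class. Their summed level was 37.2 to 103 CPM and their median mean level 1.47 CPM, against 75.2 CPM for the cysteine proteases and 13.7 CPM over all members.

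**Figure D1:**
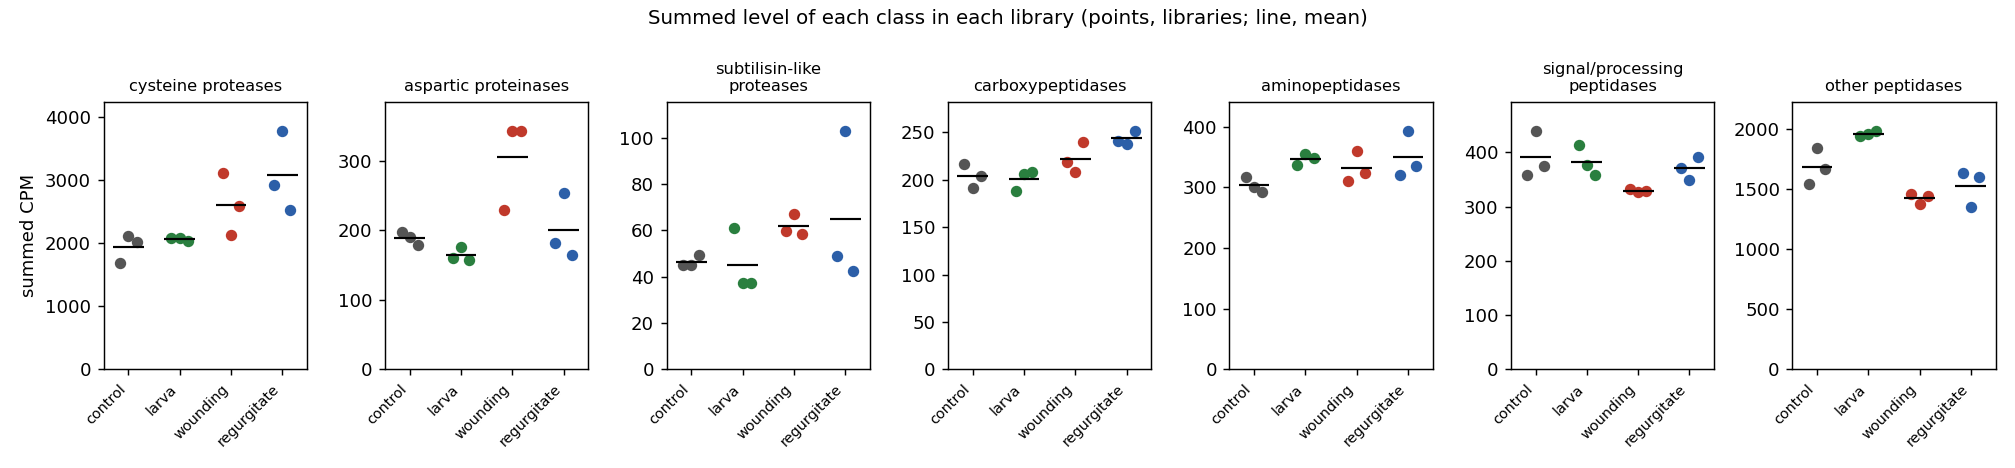
Summed CPM of the members of each class (vertical axis from 0) in each of 12 libraries, by treatment; points are libraries and lines are means. Cysteine proteases reach 3787 CPM in regurgitate 2, and aspartic proteinases are at 230 to 344 CPM in wounding against 179 to 197 CPM in control. Of the aspartic proteinase sum, the single gene GRMZM2G468657 gives 34.2 to 148 CPM in wounding and 2.56 to 12.9 CPM in control.

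In all, 21 members were too faint to be tested in any comparison, with 1 to 83 counts over 12 libraries and means of at most 1.40 CPM. They comprise 9 of the 18 subtilisin-like proteases, 7 of the 9 members of the C48 family (the family of SUMO proteases), 4 further other peptidases and 1 cysteine protease. No member was at 0 in all libraries. Another 67 members were tested in all 6 comparisons.

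GRMZM2G036365, the pepsin-like gene added from the study's list, was lowest in control stems and higher under each of the 3 treatments. Control libraries held 2.84, 2.36 and 1.62 CPM, larva libraries 11.7, 6.68 and 7.65 CPM, wounding libraries 14.4, 14.4 and 16.3 CPM and regurgitate libraries 9.78, 11.6 and 12.4 CPM. All 9 libraries from treated plants lay above the 3 control libraries, and the wounding libraries lay above all others. The gene was 6.49-fold higher in wounding than in control stems (log2 fold change 2.70 ± 0.28, SE, edgeR FDR 0.00102) and 4.85-fold higher in regurgitate than in control stems (2.28 ± 0.32, FDR 0.0339), 2 contrasts that share the control libraries with the one that brought the gene in. Without 1 library at a time, the FDR of regurgitate against control ran from 0.0434 to 0.142, and the call was kept only without regurgitate 3. In the larva contrast itself the log2 fold change was 1.91 ± 0.33. Across the 12 libraries the members most like it in rank were GRMZM2G031572, a prolyl carboxypeptidase-like gene (Spearman 0.95), and the nepenthesin-1-like GRMZM2G475265 (0.85), of 101 members compared. Those libraries share their treatments, so these values describe and do not test.

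GRMZM2G076417, the putative peptidase, was high in every treatment except wounding. Its level was 104, 112 and 126 CPM in control, 115, 67.3 and 54.5 CPM in larva, 13.8, 3.72 and 13.4 CPM in wounding and 75.6, 97.1 and 98.6 CPM in regurgitate libraries. The wounding libraries lay below all 9 others, and the regurgitate libraries lay just below the control libraries. The gene was 11.1-fold lower in wounding than in control stems (log2 fold change -3.47 ± 0.45, FDR 0.00200), a contrast that shares the wounding libraries with the one that brought it in. Regurgitate and control stems differed by a log2 fold change of -0.36 ± 0.19, which did not pass the test (FDR 0.359). The described contrast, regurgitate against wounding, had a log2 fold change of 3.12 ± 0.48. Most like it in rank were the subtilisin-like gene GRMZM2G430039 (Spearman 0.82) and the subtilisin-family gene GRMZM2G100058 (0.80).

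**Figure D2:**
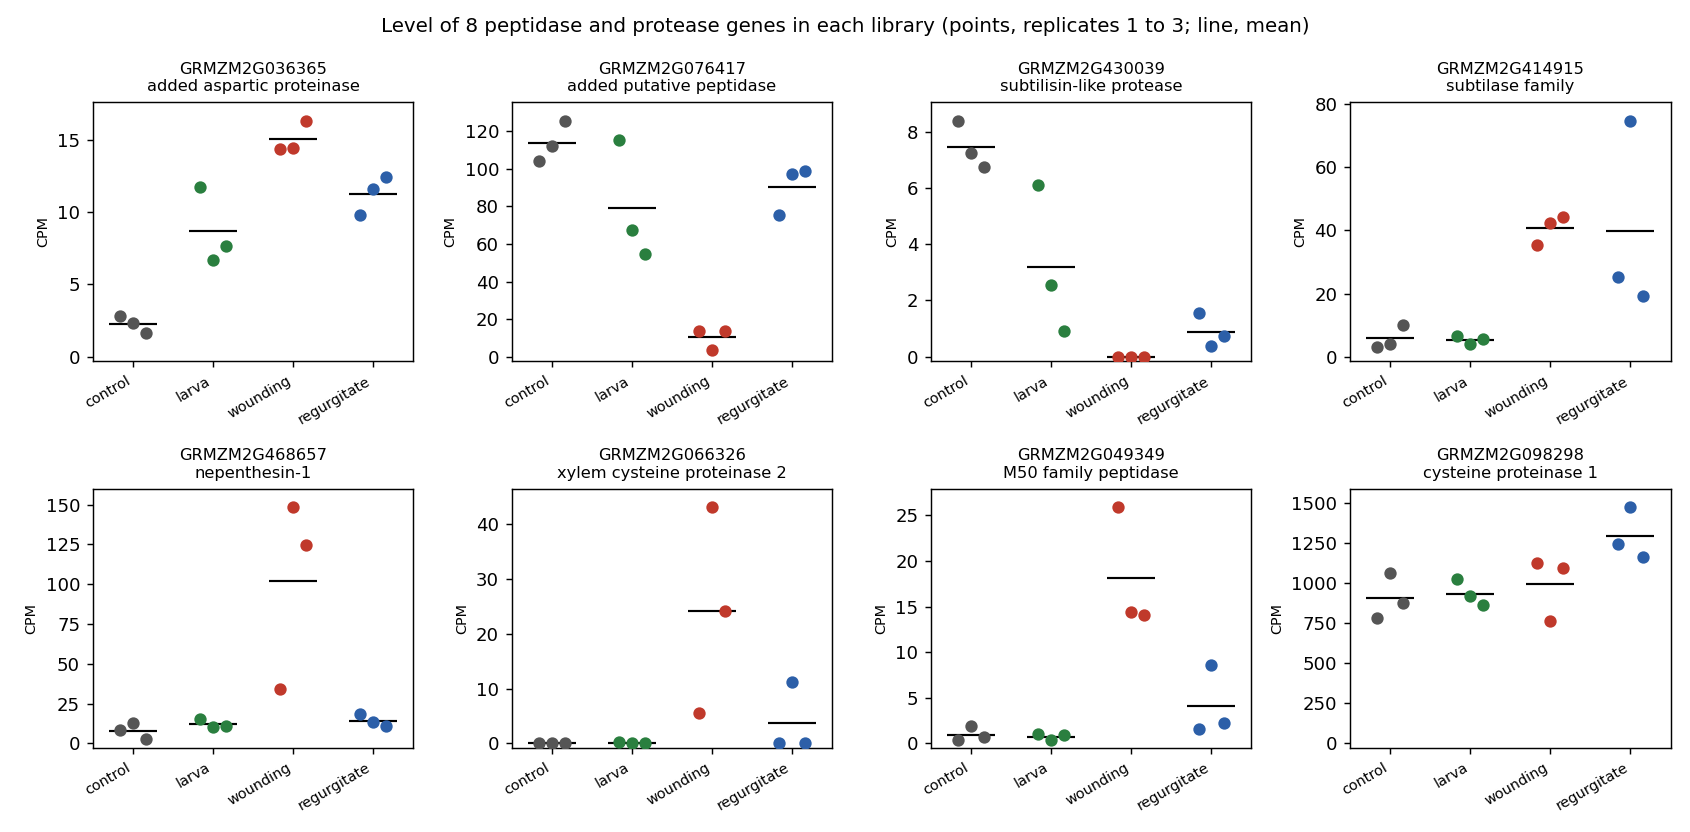
CPM of 8 members (vertical axes, each with its own scale) in the 3 libraries of each treatment; points are libraries and lines are group means. GRMZM2G036365 is lowest in control (1.62 to 2.84 CPM), GRMZM2G076417 is lowest in wounding (3.72 to 13.8 CPM), and GRMZM2G430039 is at 0 in all 3 wounding libraries.

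Wounding against control asks what repeated scratching, buffer and parafilm together did to undamaged stem tissue below the ear. Among 78 members tested, 35 changed (edgeR FDR under 0.05), 20 of them higher and 15 lower, or 44.9% of the members tested. Over all 19166 genes tested 38.8% were called, 19.6% higher and 19.3% lower, so the share among members was not far from that of the transcriptome. The median log2 fold change of the members was -0.05, beside -0.01 over all genes. By class, 7 of 11 cysteine proteases tested rose and 0 fell, 4 of 7 aspartic proteinases rose and 0 fell, and 1 of 7 subtilisin-like proteases rose and 4 fell. These counts are partly fixed by which members could be tested. The cysteine proteases GRMZM2G066326 and GRMZM2G340065 and the aspartic proteinases GRMZM2G311680 and GRMZM2G475265 were too faint to be tested in larva against control and passed here through the wounding libraries, where they are high. The 4 subtilisin-like proteases that fell were too faint to be tested in regurgitate against wounding and passed here through the control libraries. One of the 4 aspartic proteinases that rose, GRMZM2G036365, is an added gene chosen for a contrast with the same control libraries. No direction of a class is read from the counts. Without control 3 the count of members called was 21.

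The cysteine proteases that rose included strong genes and several that were near silent in control stems. The strongest of the class, GRMZM2G098298, was not among them (log2 fold change 0.13, FDR 0.736). GRMZM2G073465, which is described as a cysteine protease 1, had 254, 302 and 327 CPM in control and 772, 536 and 513 CPM in wounding libraries (2.05-fold, log2 fold change 1.03 ± 0.25, FDR 0.0165). GRMZM2G066326, a relative of the xylem cysteine proteinase that in *Arabidopsis* helps to clear the content of dying xylem cells, had 0, 0 and 0.135 CPM in control and 0.217, 0 and 0 CPM in larva libraries, against 5.48, 43.1 and 24.2 CPM in wounding and 0, 11.2 and 0.148 CPM in regurgitate libraries. All wounding libraries were thus above all control and larva libraries, while the regurgitate libraries spanned both ranges. With 1 count in the control libraries against 334 in the wounding libraries, the ratio was 510, with a 95% exact binomial counting interval from 90.8 to 20200. Its FDR was 0.00248, a description, since the gene passed the filter through the wounding libraries. Markers of secondary-walled vascular tissue moved the other way: of 19 tested, 13 fell and 2 rose, and their summed level was 648 to 1230 CPM in control and 521 to 809 CPM in wounding libraries. Their part in the values of this gene was not tested.

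GRMZM2G340065, another cysteine protease 1, was at 0.987, 2.20 and 0.944 CPM in control, 1.30, 0.486 and 0.729 CPM in larva, 5.48, 10.5 and 12.1 CPM in wounding and 0.889, 2.24 and 1.18 CPM in regurgitate libraries. Only the wounding libraries stood out, and the log2 fold change against control was 2.75 ± 0.48 (FDR 0.00514). The gene passed the filter through those wounding libraries, so this FDR is a description. The other 4 that rose, named here after their values were seen, were GRMZM2G166281 (0.87), GRMZM2G150256, which resembles the drought-induced RD21a of *Arabidopsis* (0.97), GRMZM2G098102 (2.40) and GRMZM2G064212, an ATG4-type protease (0.65). ATG4 proteases cut ATG8, the protein that coats the autophagosome. Of the 10 autophagy genes counted beside the members, 7 rose and 1 fell in the same contrast, and their summed level was 1031 to 1421 CPM in wounding against 514 to 634 CPM in control libraries. Not all cysteine proteases moved upwards: GRMZM2G038636, a cysteine proteinase 2, was at 176, 237 and 306 CPM in control and 175, 91.2 and 138 CPM in wounding libraries (log2 fold change -0.84, FDR 0.0687, not called).

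Among the aspartic proteinases, 3 of the 4 nepenthesin-like genes rose, and the fourth, GRMZM2G538535, was at 34.4, 21.1 and 38.9 CPM in control and 17.2, 6.34 and 18.1 CPM in wounding libraries (log2 fold change -1.19 ± 0.41, edgeR FDR 0.0561, DESeq2 FDR 0.0295). GRMZM2G468657, a nepenthesin-1, was at 8.39, 12.9 and 2.56 CPM in control, 15.3, 10.2 and 10.9 CPM in larva, 34.2, 148 and 124 CPM in wounding and 18.7, 13.4 and 10.9 CPM in regurgitate libraries. Every wounding library lay above the 9 others, which overlapped among themselves, and the gene was 12.8-fold higher in wounding than in control stems (log2 fold change 3.67 ± 0.72, FDR 0.00814). The fainter GRMZM2G475265 had 0.493, 0.157 and 0.405 CPM in control, 0.652, 0.729 and 1.27 CPM in larva, 5.85, 3.94 and 3.35 CPM in wounding and 3.11, 2.24 and 1.77 CPM in regurgitate libraries. Here the regurgitate libraries lay between wounding and the rest without overlap, and the difference of wounding from control was 3.52 ± 0.48 on the log2 scale (FDR 0.00235). GRMZM2G311680, a nepenthesin-2 named after its values were seen, rose by a log2 fold change of 3.31. Both GRMZM2G475265 and GRMZM2G311680 passed the filter through the wounding libraries, so their values in this contrast are a description. By contrast GRMZM2G065757, the oryzasin-like vacuolar aspartic proteinase and the highest member of the class at a mean of 136 CPM, had a log2 fold change of 0.20 (FDR 0.373).

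The called subtilisin-like proteases lay in both directions, and no direction of the class is read. The 4 that fell passed the filter through the control libraries, where they are high, so their FDRs are a description. GRMZM2G414915 was at 3.21, 4.09 and 9.98 CPM in control, 6.63, 4.01 and 5.65 CPM in larva, 35.3, 42.4 and 44.3 CPM in wounding and 25.1, 74.7 and 19.4 CPM in regurgitate libraries. Both groups of scratched plants lay above both groups without scratches, and the log2 fold change of wounding against control was 2.80 ± 0.42 (FDR 0.00313). GRMZM2G430039 had 8.39, 7.23 and 6.74 CPM in control, 6.09, 2.55 and 0.911 CPM in larva, 0, 0 and 0 CPM in wounding and 1.56, 0.374 and 0.739 CPM in regurgitate libraries. With 164 counts in control and 0 in wounding libraries it was at least 35.8-fold lower in wounding, taking 3 counts over the group as the floor, and its FDR was 0.00131. GRMZM2G145589 (log2 fold change -2.94 ± 0.39, FDR 0.00211) and GRMZM2G012062 (-3.05 ± 0.50, FDR 0.00438) fell too. Both identifiers lead to the same gene in the RefSeq gene table, so they may be pieces of 1 gene and are not 2 independent cases. The last of the 4 that fell was GRMZM2G114394 (-2.21), named after its values were seen.

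Among the other peptidases, 5 of 31 tested rose and 7 fell, beside 19.6% of all genes higher and 19.3% lower. The filter enters these counts too, and the added GRMZM2G076417 is among the 7. GRMZM2G049349 was too faint to be tested in larva against control and passed here through the wounding libraries. GRMZM2G076017, too faint in regurgitate against wounding, passed here through the control libraries. GRMZM2G049349, of the M50 family of membrane-embedded metalloproteases, was at 0.370, 1.89 and 0.674 CPM in control, 0.978, 0.364 and 0.911 CPM in larva, 25.9, 14.4 and 14.1 CPM in wounding and 1.56, 8.59 and 2.22 CPM in regurgitate libraries, 18.8-fold higher in wounding than in control (log2 fold change 4.23 ± 0.57, FDR 0.00219). GRMZM2G452896, of the serine peptidase family S28 of prolyl-specific exopeptidases, rose 5.49-fold (2.46 ± 0.27, FDR 0.00124), and GRMZM2G103258, a signal peptide peptidase-like gene, rose 2.41-fold (1.27 ± 0.22, FDR 0.00502). Of the 2 ubiquitin thiolesterases, enzymes that take ubiquitin off proteins, GRMZM2G097739 went from 44.1, 17.5 and 18.9 CPM in control to 1.89, 2.19 and 2.46 CPM in wounding libraries (-3.63 ± 0.46, FDR 0.00177) and GRMZM2G429237 fell as well (-1.65 ± 0.35, FDR 0.0111). GRMZM2G076017, a faint threonine endopeptidase, fell by 2.24 (FDR 0.00805), whereas the 2 strong ones did not pass the test, with -0.61 (FDR 0.0590) for GRMZM2G177508 and -0.57 (FDR 0.0626) for GRMZM2G047720. Among 38 proteasome subunits tested beside the members, 2 rose and 0 fell. Of 44 further proteases tested whose descriptions use other words, 6 rose and 8 fell.

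The counts of the next 3 classes stand beside the same shares over all genes, 19.6% higher and 19.3% lower, and no direction is read from them. Of the 7 signal and processing peptidases, 1 fell and 0 rose. It was GRMZM2G005036, described as an alpha subunit of the mitochondrial processing peptidase, which removes import signals from mitochondrial proteins. Its level was 65.9, 90.4 and 80.8 CPM in control and 39.7, 26.4 and 37.8 CPM in wounding libraries (-1.20 ± 0.22, FDR 0.00630). Another gene of that description, GRMZM2G167767, was not called (-0.18, FDR 0.662). The signal peptidase complex subunits GRMZM2G131321 and GRMZM2G112366, the 2 highest of the class, had log2 fold changes of 0.02 and -0.23 and were not called. Of 7 methionine aminopeptidases, which remove the first methionine of new proteins, 2 rose and 1 fell, all by less than 1 on the log2 scale. Of 8 carboxypeptidases 1 rose and 2 fell, the riser being the prolyl carboxypeptidase-like GRMZM2G031572 (44.5, 45.1 and 36.5 CPM in control, 63.1, 76.7 and 73.8 CPM in wounding, 0.75 ± 0.17, FDR 0.0139). The protease inhibitors, the other side of proteolysis, had 5 of 16 genes higher and 2 lower in wounding, at a summed level of 62710 to 89170 CPM against 11310 to 28710 CPM in control libraries. Yet 6 of the 16 had a log2 fold change above 0 and the median was -0.27, so the sum was higher while the median lay below 0. Of markers of other tissue, 2 of 37 for green chlorenchyma rose and 5 fell, and 1 of 40 for dividing cells rose and 5 fell. All of these calls were made beside a higher contig share in the wounding libraries, and the part of the contigs and of these markers in them was not tested.

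**Figure D3:**
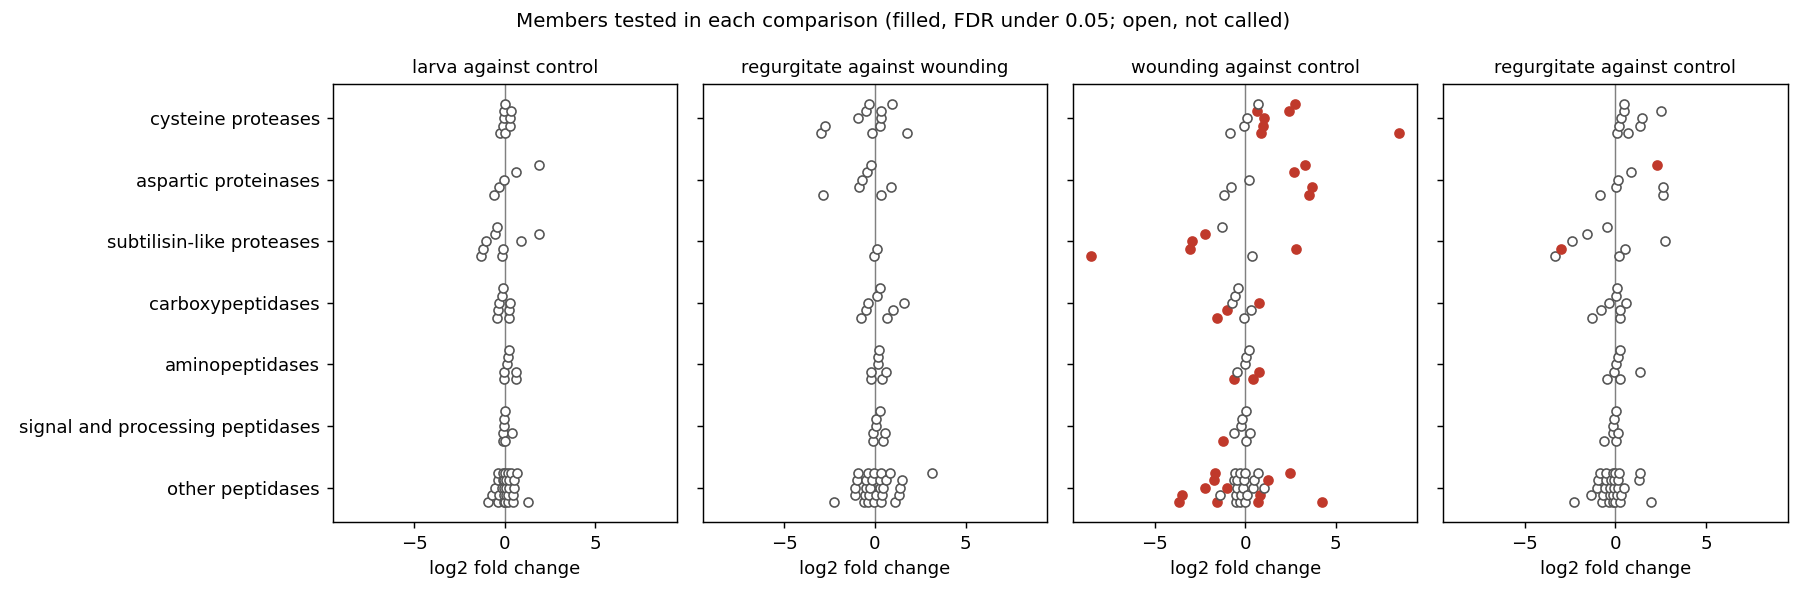
Log2 fold change (horizontal axis) of each member tested, by class (vertical axis), in 4 comparisons; filled points have an edgeR FDR under 0.05 and open points do not. The calls lie almost wholly in wounding against control (35), with 2 in regurgitate against control and 0 in the others; the outermost fitted points, GRMZM2G066326 and GRMZM2G430039, come from groups at or near 0 counts and are no bounds.

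Larva against control asks what long feeding changed. No member of the 76 tested was called by edgeR at an FDR under 0.05, as 0% of all 19612 genes were. At an unadjusted p under 0.05 there were 10 members (13.2%, beside 9.78% of all genes), and DESeq2 called 2 (2.63%, beside 1.39%), GRMZM2G036365 and GRMZM2G121293. The first of these entered through this contrast, which leaves 1 call that the choice of members did not fix. The median log2 fold change of the members was -0.02, with a range from -1.31 to 1.91, and 16 members had all larva libraries above all control libraries (21.1%, beside 8.45% of all genes) while 3 had them all below (3.95%, beside 7.07%). The near identity of larva 2 and larva 3 enters these counts. The 16 include GRMZM2G036365, which this contrast brought in. They also include GRMZM2G412085 and GRMZM2G047319, too faint to be tested in the other pairs, which passed here through the larva libraries. The higher share among members is therefore partly fixed by the choice and the filter.

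The subtilisin-like protease GRMZM2G121293 had 10.6, 8.81 and 8.77 CPM in control and 18.7, 17.6 and 16.4 CPM in larva libraries, without overlap, and 12.5, 19.7 and 5.37 CPM in wounding libraries, which spanned both. Its log2 fold change in larva stems was 0.89 ± 0.16 (edgeR FDR 0.229, DESeq2 FDR 0.0168). GRMZM2G047720, the threonine endopeptidase, stood at 224, 280 and 189 CPM in control and 413, 340 and 382 CPM in larva libraries, above 154, 151 and 166 CPM in wounding and 230, 140 and 201 CPM in regurgitate libraries. Its larva difference was 0.70 ± 0.19 on the log2 scale (FDR 0.335). Over the 4 treatments its FDR was 0.00567, a test that also takes in the low wounding libraries and is not one of larva against control. GRMZM2G177508 had the same order of treatments, with 316, 464 and 379 CPM in control, 470, 546 and 572 CPM in larva, 242, 253 and 273 CPM in wounding and 426, 248 and 386 CPM in regurgitate libraries (FDR over the 4 treatments 0.0289). Of 38 proteasome subunits tested beside the members in larva against control, 9 had a log2 fold change above 0, the median was -0.09 and 0 were called. In the downward direction, the subtilase GRMZM2G012062 had 5.55, 4.56 and 5.53 CPM in control and 3.04, 1.58 and 1.64 CPM in larva libraries (-1.31 ± 0.33, FDR 0.314), and the nepenthesin-2 GRMZM2G538535 had 34.4, 21.1 and 38.9 CPM against 22.5, 21.5 and 20.04 CPM (-0.57 ± 0.23, FDR 0.482). Of the 2 highest cysteine proteases, GRMZM2G098298 had a log2 fold change of 0.03 ± 0.20 (FDR 0.982) with overlapping libraries. GRMZM2G073465 had 333, 385 and 394 CPM in larva libraries, all above the 254, 302 and 327 CPM of control, but did not pass the test (0.32 ± 0.17, FDR 0.620).

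Regurgitate against wounding asks what caterpillar regurgitate added to a wound. No member of 72 was called, beside 11 of 18285 genes (0.0602%). At an unadjusted p under 0.05 there were 12 members (16.7%, beside 19.8%), DESeq2 called 5 (6.94%, beside 8.93%), and an edgeR fit of all 12 libraries called 6. Those 6 include the added GRMZM2G076417, and the share over all genes was not counted for that fit. The libraries did not overlap for 6 members higher in regurgitate stems (8.33%, beside 12.5%) and for 16 lower (22.2%, beside 14.0%). Same-numbered libraries deviated together in this comparison, and 0 members were called once replicate number entered the model as a blocking term. The fold changes and FDRs given for this comparison come from the fit without that term.

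Besides GRMZM2G076417, DESeq2 called 4 members that were lower in regurgitate stems. They were GRMZM2G340065 (log2 fold change -2.76 ± 0.51, edgeR FDR 0.0820, DESeq2 FDR 0.000427), GRMZM2G468657 (-2.85 ± 0.57, 0.0852 and 0.000107), GRMZM2G103258 (-0.99 ± 0.18, 0.0820 and 0.00117) and GRMZM2G049349 (-2.25 ± 0.64, 0.136 and 0.0212). Of these, GRMZM2G340065 and GRMZM2G049349 passed the filter through the wounding libraries, where they are high. For GRMZM2G103258 the libraries read 26.0, 24.1 and 15.8 CPM in control, 24.9, 15.1 and 11.8 CPM in larva, 50.6, 56.4 and 53.0 CPM in wounding and 24.7, 26.5 and 29.9 CPM in regurgitate stems, so that the wounding libraries alone stood apart. GRMZM2G420055, an O-sialoglycoprotein endopeptidase, was the second by p among genes that were higher, at 7.55, 3.72 and 7.38 CPM in wounding and 13.6, 11.6 and 15.7 CPM in regurgitate libraries (1.13 ± 0.34, FDR 0.150). It had 12.8, 13.2 and 10.7 CPM in control libraries, within the span of the regurgitate libraries or just below it.

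Against control, regurgitate stems had 2 called members of 77 (2.60%), beside 1.28% of 19171 genes: GRMZM2G036365, described above, was higher and GRMZM2G430039 was lower (7.99-fold, log2 fold change -3.0 ± 0.48, FDR 0.0453). Leaving out any 1 library ended the call of GRMZM2G430039 (FDR 0.0576 to 0.158). GRMZM2G036365 was chosen for a contrast with the same control libraries. GRMZM2G430039 passed the filter through those libraries, where it is high. Nothing is therefore read from the share of 2.60%. DESeq2 called 9 (11.7%, beside 8.90%) and the fit of all 12 libraries 8, without a share over all genes to set beside the 8. Of the members followed from the wounding comparison, GRMZM2G414915 (2.73 ± 0.67, FDR 0.109), GRMZM2G475265 (2.62 ± 0.56, FDR 0.0844) and GRMZM2G145589 (-3.33 ± 0.63, FDR 0.0689) did not pass the edgeR test, while their log2 fold changes in wounding against control were 2.80, 3.52 and -2.94. All 9 cysteine proteases tested had positive log2 fold changes, from 0.11 to 2.51, and 0 were called. Over all genes tested, 46.7% had a positive log2 fold change. GRMZM2G066326 and GRMZM2G340065 were too faint to be tested here, and no direction of the class is read. The 3 regurgitate libraries were uneven. GRMZM2G073465 had 626, 1194 and 452 CPM, GRMZM2G414915 had 25.1, 74.7 and 19.4 CPM and GRMZM2G130053, a cysteine protease 1 named after its values were seen, had 5.33, 49.7 and 0.591 CPM, each highest in regurgitate 2, the library with 48.03% of its counts on contigs.

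**Figure D4:**
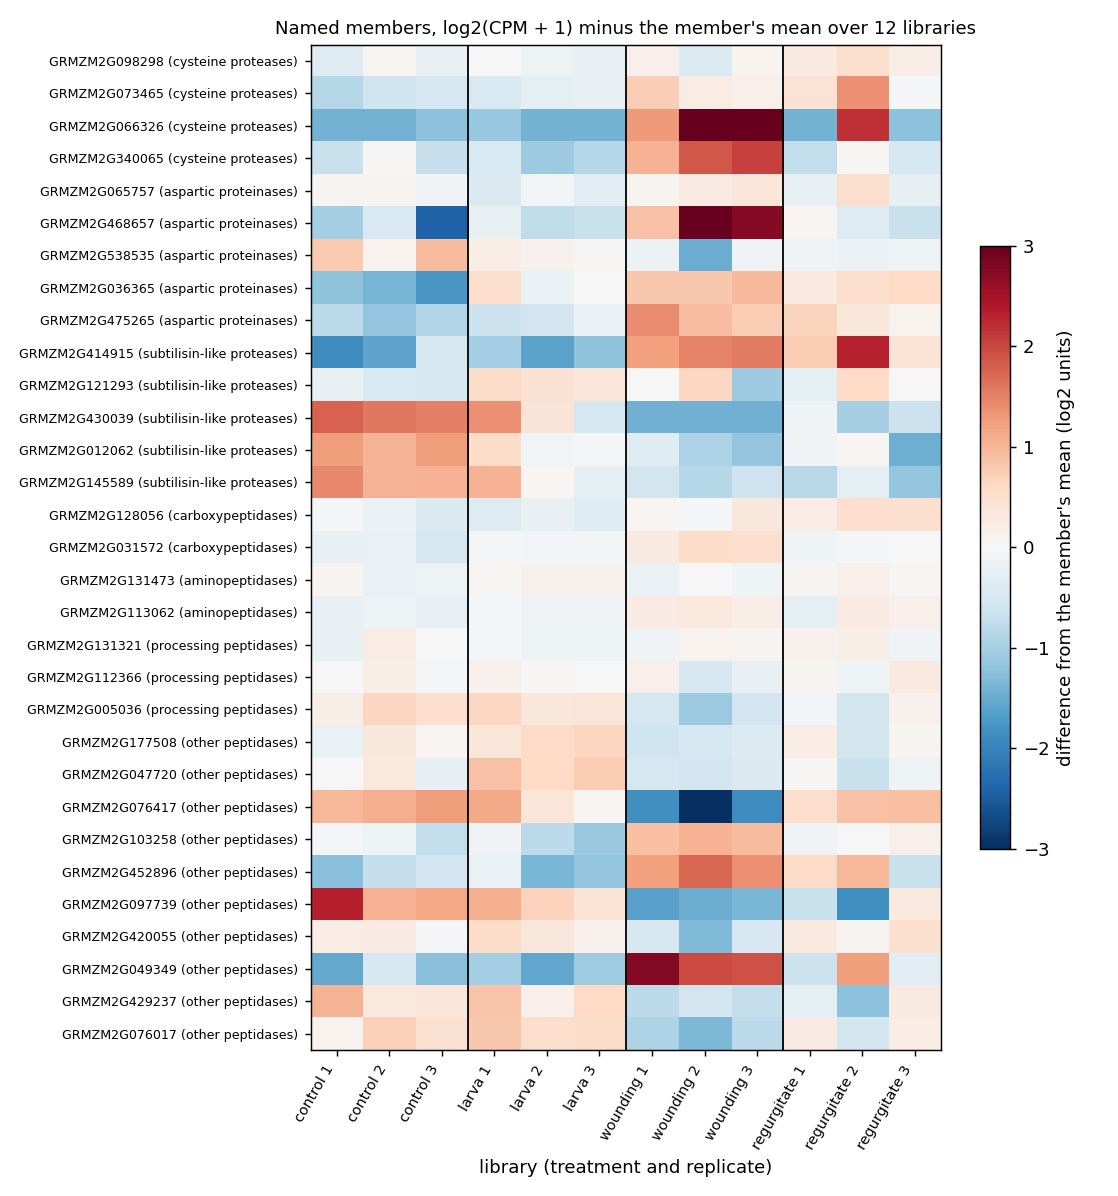
Log2(CPM + 1) minus the member's mean over 12 libraries (colour, clipped at 3 in either direction) for the 31 members named by rule (rows, by class) in each library (columns). The wounding columns hold the deepest colours, and regurgitate 2 stands nearer to wounding than regurgitate 3 does for GRMZM2G066326 and GRMZM2G049349.

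Over the 4 treatments together, 35 of 81 members differed (43.2%, beside 33.9% of 20224 genes), and 28 of them were also among the 35 called in wounding against control, a contrast inside this test. By group mean, wounding was the highest treatment for 16 of the 35 and the lowest for 15, larva the highest for 8 and the lowest for 10, control the highest for 9 and the lowest for 8, and regurgitate the highest or lowest for 2 each. These counts include the 2 added genes and members that passed the filter through the wounding libraries, where they are high. Among members that entered by their description, the smallest FDR was that of GRMZM2G340065 (0.00144). This gene was too faint to be tested in larva or regurgitate against control and entered through the wounding libraries. Its rank is therefore a description. The contrasts that brought in the 2 added genes lie inside this test, so nothing is read from their FDRs. The difference between the larva response and the regurgitate response was called for 2 of 81 members (2.47%, beside 1.15% of 20224 genes), which are the 2 added genes. Their choice used these contrasts, so the values are a description: 2.34 ± 0.39 for GRMZM2G036365 and -3.65 ± 0.58 for GRMZM2G076417 on the log2 scale. Neither call held with a replicate block (FDR 0.0557 and 0.0515) or with larva 2 and 3 summed as 1 sample (FDR 0.0815 and 0.0911).

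Another 3 members were lower in regurgitate 3 than in every other library, and were named after their values were seen. GRMZM2G133718, a serine carboxypeptidase, had 0 counts there, which allows up to 0.443 CPM, and 6.04 to 9.0 CPM in the other 11 libraries. GRMZM2G326226, a C48-family gene, had 2 counts there (0.296 CPM) and 14.6 to 25.7 CPM elsewhere, and GRMZM2G045185, a cysteine-type peptidase, had 8.87 CPM there and 30.7 to 40.8 CPM elsewhere. Regurgitate 3 is also the library with 1.03% of its counts on contigs; the part of this in the 3 values was not tested.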

How the data were processed

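MACE libraries of stem from 4 treatments with 3 replicates each were used. As the authors describe it, reads identical in barcode and sequence were counted once, reads were trimmed, aligned with Novoalign 3.00.05 to the Ensembl maize genome and then its transcriptome (at most 10 locations per read), and the rest assembled into contigs. Paralogs can therefore share reads. Use of strand in counting is not given in the sources used here. The deposited values are raw counts per feature and library, and every value here starts from them. The authors' normalized group means, log2 fold changes, p-values and FDRs were not used. The row with no annotation held 0.107% to 0.289% of counts and was left out.

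Maize gene rows were tested with edgeR 4.0.16 (R 4.3.3): filterByExpr (minimum count 10, minimum total 15), TMM, quasi-likelihood F test, Benjamini-Hochberg adjustment over all genes tested, threshold 0.05, on the 6 libraries of a pair or on all 12 for the 4-treatment test and the difference of responses. All FDRs are edgeR's unless DESeq2 is named. Tests were two-sided, and the standard error is the log2 fold change over the root of F. With 3 replicates their spread limits precision. Intervals and floors cover counting error only. Alternatives were RLE scaling, no filter, DESeq2 1.42.0, a replicate block, 1 fit of all 12 libraries, each library left out, and larva 2 and 3 summed. In regurgitate against wounding same-numbered libraries deviated together (correlations 0.16, 0.32 and 0.16), so pairing by number is possible there. The fold changes, standard errors and FDRs printed for that comparison come from the fit without the replicate block. Scripts were tested on simulated data.

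Members, classes and lists were chosen with earlier results of these data known. Named genes are the 2 added genes, members called (at most 8 by FDR per comparison and direction), the 2 highest members per class, and the 2 smallest p-values per direction and pair. Of the member identifiers, 80 matched the RefSeq gene table (assembly Zm-B73-REFERENCE-NAM-5.0), used for names only.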

Additional observations from a re-analysis of the deposited data

Results flagged for a closer look

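Among the members, 2 had a larva response that differed from the regurgitate response by the test of that difference (edgeR, 12 libraries). For GRMZM2G036365 the larva minus regurgitate value was 2.34 on the log2 scale (FDR 0.0304): the gene stood above control in all 3 larva libraries and below wounding in all 3 regurgitate libraries. For GRMZM2G076417 it was -3.65 (FDR 0.0292), with regurgitate above wounding in 3 of 3 libraries and larva libraries at 54.5 to 115 CPM beside 104 to 126 CPM in control. Both genes had been taken from the study's lists for one of the contrasts inside this difference. Leaving out 1 library at a time gave an FDR from 0.0152 to 0.0860 for the first and from 0.0130 to 0.0905 for the second. With a replicate block the FDRs were 0.0557 and 0.0515, and with larva 2 and 3 summed they were 0.0815 and 0.0911, so both calls were lost under either alternative.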

How the results depend on the processing

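Of 346 values of the 30 followed fold changes under alternatives, 298 kept their direction and side of the threshold, 32 lost the call, 16 gained it and 0 changed direction; all 16 followed in wounding against control kept both under every alternative run. DESeq2 called 2 members in larva against control and 5 in regurgitate against wounding (0 by edgeR in both), 9 in regurgitate against control (2 by edgeR) and 5 in the difference of responses (2 by edgeR). In regurgitate against wounding no filter gave 1 call and the fit of all 12 libraries 6, and in regurgitate against control that fit gave 8. Summing larva 2 and 3 left 0 calls in the difference of responses. With 1 library left out, the calls were 0 to 0 in larva against control, 0 to 3 in regurgitate against wounding, 21 (without control 3) to 32 in wounding against control, 0 to 1 in regurgitate against control, 25 to 40 over the 4 treatments and 0 to 4 in the difference of responses. The causes were not tested. When replicate numbers entered as a replicate block, the calls were 0, 0, 25 and 0 in the 4 pairs in that order, 29 over the 4 treatments and 0 in the difference of responses. The block changed no call in regurgitate against wounding, where pairing by number is possible. Elsewhere the libraries share only a number: 2, 0 and 0 of 6 libraries correlated best with their own number in larva, wounding and regurgitate against control. With 3 libraries per group, faint members could not be tested at this depth.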
